A study of Mus musculus with 12 samples.

Results

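The tyrosine phosphatase Shp2, encoded by Ptpn11, was examined together with its close relative Shp1 and with the proteins that switch RAS on and off directly below receptors, in the proximal small intestine of 12 mice. The set held 9 genes, chosen by symbol for their known place in the pathway, and all 9 had a value among the 18090 gene symbols of the array. They were Ptpn11, Ptpn6, Gab1, Grb2, Sos1, Hras (listed as HRAS1), Nras, Rasa1 and Rasal1. The mutant group was 6 villinCre;Shp2fl mice, in which Cre recombinase under the villin promoter, active in the intestinal epithelium, meets a loxP-flanked Ptpn11 allele. The other group was 6 mice described only as control, and the labels do not say whether these carried Cre or the floxed allele. Both groups have P6 in their titles and a mixed C57/BL6 and 129Ola background. RNA was taken from a whole piece of tissue, in which epithelium is read together with stroma, muscle, vessels and leukocytes.

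When a growth factor receptor is activated, phosphorylated tyrosines recruit the adaptor Grb2, which carries the exchange factor Sos1 to the membrane, where Sos1 loads RAS with GTP. Gab1 is a docking protein that joins this complex and, once phosphorylated, binds the SH2 domains of Shp2, which opens the phosphatase and sustains RAS and ERK signalling. RAS GTPase-activating proteins (RAS GAPs) such as Rasa1 and Rasal1 end the signal by speeding up GTP hydrolysis. Shp1, encoded by Ptpn6, shares the layout of paired SH2 domains and a catalytic domain, but is best known as a brake on receptor signalling in leukocytes.

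Of the 9 genes, 1 rose and 1 fell in the mutants, and neither was the targeted gene. Rasal1 was 4.18-fold higher on the deposited scale and Ptpn6 was 0.773-fold, while the other 7 genes did not pass the test. A gene was called where the adjusted p of limma (a moderated linear model fitted to all rows, with Benjamini-Hochberg adjustment over all of them) was under 0.05. By that rule 9.19% of all rows were called, 4.71% higher and 4.48% lower, and 15.8% of the 9946 rows whose mean lay above the noise limit. A share of 2 in 9 genes is too coarse to be read against these backgrounds. Intensities are in arbitrary units, and a value with ± is a group's mean and SD (n = 6 mice each). Differences on the log2 scale are mutant minus control, after an offset of 50 was added to every value. The noise limit was set at 27.8 units, as far above 0 as the lowest value on any array lay below it. Of the 9 genes, 8 had an overall mean above it, and Sos1 did not. For Rasal1 controls 3 and 4 lay under the limit, at 16.4 and 26.3, and these values enter the 4.18-fold. The fitted ratio of Rasal1, after the offset, was 2.14.

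**Figure D1:**
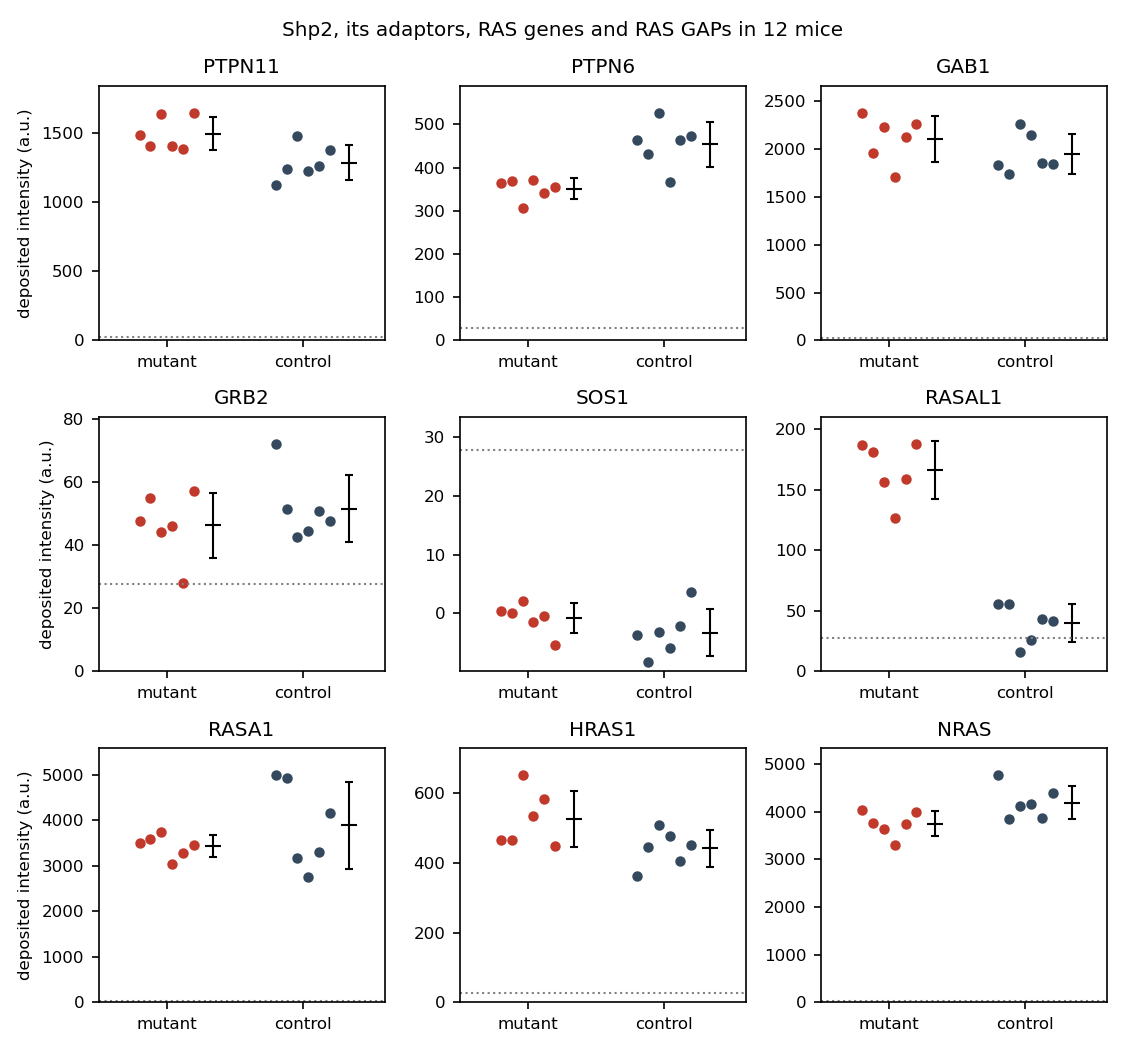
Deposited intensity in arbitrary units (y axis, linear) of each of the 9 genes in every mouse, with mutants in red on the left of each panel and controls in blue on the right. Black bars show the mean and SD of 6 mice, the dotted line the noise limit of 27.8. The 6 RASAL1 values of mutants lie above all 6 of controls, and all 12 SOS1 values lie under the noise limit.

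The samples were not alike in every respect. Pancreatic acinar markers, of a tissue that lies against the proximal intestine, set 2 mice apart. The summed level of 10 of them ran from 2822 to 33162 in mutants and from 2165 to 61265 in controls, with mutant 1 and control 4 the highest of their groups and none of the 10 called. Of 11 epithelial markers measured, 4 were higher and none lower (36.4%, against 9.19% of all rows and 15.8% of rows above noise called either way). These were Krt19 (log2 difference 0.95, SE 0.14, adjusted p = 0.000911), Cldn3, Elf3 and Cdx1. The other 7 did not pass: Krt18 had a log2 difference of -0.35 (adjusted p = 0.086), and Vil1 and Cdh1 read 8714 ± 990 and 1990 ± 139 in mutants, and 9101 ± 1121 and 2152 ± 256 in controls. The summed epithelial markers ran from 41171 to 45763 in mutants and from 36468 to 43316 in controls, and no row was matched to the epithelial marker Epcam. Of 14 leukocyte markers only Csf1r was called, lower, and of 8 endothelial markers 3 were lower (Emcn, Egfl7 and Tek). Among 8 smooth muscle and 8 stromal markers, Cnn1 and Lum were called, both higher. Some of these calls lay close to the threshold. Csf1r lost its call when controls 1, 2 and 3 or mutant 3 were left out one at a time (adjusted p from 0.0517 to 0.0611) and Lum when mutant 1 was (0.0503). Cnn1 lost it in 8 and the endothelial gene Egfl7 in 10 of the 12 such fits. Without control 4 and mutant 1 together, Elf3, Emcn and Tek did not pass (adjusted p = 0.0653, 0.0576 and 0.125). The other called markers kept their calls there. In RNA from whole tissue, fewer cells of a type and less RNA per cell cannot be told apart.

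The promoter windows of both phosphatase genes are shown because these genes are the targeted one and its closest relative, and their transcripts had fitted differences of opposite sign. Each line holds the 250 bases before the transcription start in the RefSeq annotation of GRCm38.p6, read on the gene's own strand, with motif matches in capitals.
Ptpn11, chr5:121191398-121191647, minus strand: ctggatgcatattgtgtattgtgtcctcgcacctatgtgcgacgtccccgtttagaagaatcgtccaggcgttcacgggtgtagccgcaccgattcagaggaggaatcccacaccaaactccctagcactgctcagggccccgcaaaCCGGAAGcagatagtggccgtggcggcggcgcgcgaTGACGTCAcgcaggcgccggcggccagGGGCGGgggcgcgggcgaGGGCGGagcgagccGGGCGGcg
Ptpn6, chr6:124738710-124738959, minus strand: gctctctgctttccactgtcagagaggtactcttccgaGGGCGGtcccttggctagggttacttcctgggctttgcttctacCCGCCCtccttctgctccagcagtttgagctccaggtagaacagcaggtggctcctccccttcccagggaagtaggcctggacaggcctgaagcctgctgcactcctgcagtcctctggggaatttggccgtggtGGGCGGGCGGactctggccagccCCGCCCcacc
The letters searched on both strands were TGACGTCA (the cAMP response element), CCGGAAG (an ETS-type core), GGGCGG (the GC box) and TGANTCA (the AP-1 site). The Ptpn11 window held 1 cAMP response element, 1 ETS-type core and 3 GC boxes, and 31 CpG dinucleotides. The Ptpn6 window held 5 GC boxes, of which a pair overlap, none of the other motifs, and 7 CpG dinucleotides, against a median of 6 over 32851 windows of the same length. A cAMP response element was present in 1.55% of those windows, an ETS-type core in 6.91%, a GC box in 32.7% and an AP-1 site in 6.75%. Among the 8 genes with a window in the table, the letters TGACGTCA occurred in that of Ptpn11 alone. Rasal1 had no entry.

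The first question was whether the targeted transcript itself differed. Ptpn11 read 1388 at the lowest, 1451 at the median and 1646 at the highest in mutants, against 1129, 1255 and 1481 in controls. The groups overlapped: 3 of 6 mutants lay above the highest control, and all 6 above the control mean. The fitted log2 difference was 0.21 (SE 0.07, 95% interval 0.06 to 0.37), or 1.16-fold, and did not pass (adjusted p = 0.0763). An exact two-sided permutation test over all 924 assignments of the mice gave p = 0.0152, where 0.00216 is the smallest it can give. Of the 12 fits that leave out 1 mouse, 1 passed: without control 3, the highest control, the difference was 0.25 (adjusted p = 0.043). In the others the adjusted p of the fit was as high as 0.165, and without control 4 and mutant 1 together it was 0.185. No mutant read below the control mean of 1288. The position of the probe on the transcript is not known here, so a transcript that lost an internal part through Cre could still be read, and this row does not check the labels.

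Ptpn6, the Shp1 gene, fell. Its values were 306, 360 and 370 (lowest, median, highest) in mutants, against 366, 464 and 526 in controls. The ranges met at a single point: control 4, at 366, lay inside the mutant range, and all other controls were at 432 or more. Means were 351 ± 24.5 in mutants and 454 ± 52.7 in controls, a log2 difference of -0.32 (SE 0.07, 95% interval -0.47 to -0.16, adjusted p = 0.0126). Control 4 was one of the mice with pancreatic transcripts, and without it and mutant 1 the difference was -0.38 (adjusted p = 0.00563). Since Shp1 is abundant in leukocytes, the leukocyte markers are set beside it. They do not cover Ptpn6 RNA of other cell types, and whole tissue does not show which cells it came from. Their summed level ran from 6514 to 8851 in mutants and from 6432 to 9074 in controls, with 1 of 14 called, lower. The leukocyte marker Laptm5 read 3364 ± 569 in mutants and 2839 ± 461 in controls (adjusted p = 0.313). The called one, Csf1r, read 769 ± 195 in mutants and 1192 ± 211 in controls (log2 difference -0.60, adjusted p = 0.0254). The median log2 difference of the 14 was 0.05. The defining marker Ptprc was under the noise limit in all 12 mice, from -3.3 to 5.1 in mutants and from -1.3 to 6.5 in controls, and so measures nothing here. The part of cell composition in the fall of Ptpn6 was not tested.

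The adaptors that link receptors to Sos1 did not change by the test. Gab1 read 2110.4 ± 241 in mutants and 1948 ± 208 in controls, with overlapping ranges (1712 to 2375 against 1736 to 2264) and a log2 difference of 0.11 (95% interval -0.08 to 0.29, adjusted p = 0.549). Grb2 lay low on the array, at 46.4 ± 10.4 in mutants and 51.6 ± 10.6 in controls (log2 difference -0.06, 95% interval -0.21 to 0.09, adjusted p = 0.696), with mutant 5 at 28.0, just above the noise limit, and control 1 at 72.1. An offset of 50 shrinks differences at that level. For Sos1 all 12 values, from -5.3 to 2.2 in mutants and from -8.2 to 3.7 in controls, were under the noise limit, and no level or fold is given.

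Both RAS genes of the set were read well above noise, and neither passed. Hras, a RAS isoform that cycles between plasma membrane and Golgi through palmitoylation, read 525 ± 80.5 in mutants and 441 ± 52.3 in controls (log2 difference 0.22, 95% interval 0.01 to 0.42, adjusted p = 0.192). The highest values were those of mutants 3, 4 and 5, at 651, 535 and 584, and the other 3 mutants lay inside the control range of 361 to 508. Nras, which is palmitoylated in the same way, leaned the other way, at 3749 ± 267 in mutants and 4193 ± 344 in controls (log2 difference -0.16, 95% interval -0.30 to -0.02, adjusted p = 0.160). In 4 of 6 mutants Nras was below every control. The intervals of Hras and Nras exclude 0 before adjustment, and their ends bound the fitted ratios at 1.01 to 1.33 for Hras and at 0.809 to 0.986 for Nras.

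The largest difference of the set was that of the RAS GAP Rasal1, while the other RAS GAP, Rasa1, did not pass. Rasal1, a GAP that calcium brings to the membrane through its C2 domains, read 126, 170 and 188 (lowest, median, highest) in mutants, against 16.4, 42.5 and 55.6 in controls. The groups did not overlap, and the lowest mutant, mutant 4, was still more than the highest control. Over all rows 2.48% had every mutant above every control. Means were 166 ± 23.9 in mutants and 39.8 ± 15.8 in controls, and the log2 difference was 1.10 (SE 0.10, 95% interval 0.89 to 1.31, adjusted p = 9.27e-06), rank 37 of 18090 rows by p. Controls 3 and 4 lay under the noise limit, at 16.4 and 26.3, and the offset shrinks the fitted value: with values under the limit raised to it and no offset, the log2 difference was 2.03 (SE 0.20, adjusted p = 0.000437). It was 1.04 (adjusted p = 0.000176) without control 4 and mutant 1. Rasa1, p120 RasGAP, whose SH2 domains bind activated receptors, read 3438 ± 242 in mutants and 3891 ± 951 in controls (log2 difference -0.15, 95% interval -0.43 to 0.14, adjusted p = 0.608). Its mutants stayed between 3049 and 3742, while controls 1 and 2 stood at 4994 and 4938 and control 4 at 2758, a coefficient of variation of 7.03% in mutants and 24.5% in controls.

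**Figure D2:**
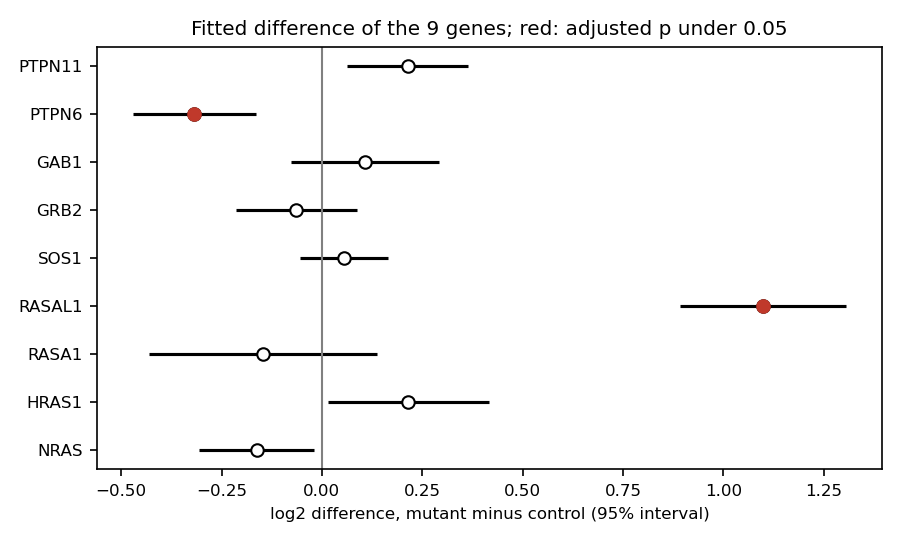
Fitted log2 difference, mutant minus control (x axis), of the 9 genes (y axis), with points for the estimate and lines for its 95% interval. Red points passed the threshold: RASAL1 at 1.10 and PTPN6 at -0.32. The intervals of PTPN11, HRAS1 and NRAS exclude 0 without passing after adjustment over all rows.

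The 9 genes differed in how far mice of a group spread. Among rows above the noise limit, the spread around the group means on the fitted scale, where the offset lowers that of dim rows such as Grb2, placed Nras at the 13.0 percentile, Grb2 at 18.6, Ptpn11 at 19.0, Ptpn6 at 20.0, Gab1 at 43.6, Hras at 55.1, Rasal1 at 58.6 and Rasa1 at 86.1. The size of the Rasal1 difference stood at the 98.8 percentile of those rows and that of Ptpn6 at 82.2. The other 6 genes above noise lay between the 25.8 percentile for Grb2 and the 68.0 for Hras.

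Of the wider pathway, 98 further genes were measured in lists of RAS relatives, RAS activators and adaptors, RAS GAPs, the RAF-MEK-ERK cascade, receptors and adaptors that dock Shp1 or Shp2, Src-family kinases, and enzymes that lipid-modify RAS. In the mutants 4 of them were higher and 8 lower, together 12.2%, between the 9.19% of all rows and the 15.8% of rows above noise. Their median log2 difference was -0.02 against -0.01 over all rows. Without control 4 and mutant 1 the numbers were 4 and 5. Leaving out 1 mouse at a time gave 2 to 4 higher and 4 to 7 lower. The lists overlap, and 26 of the 98 had both group means within the noise limit.

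**Figure D3:**
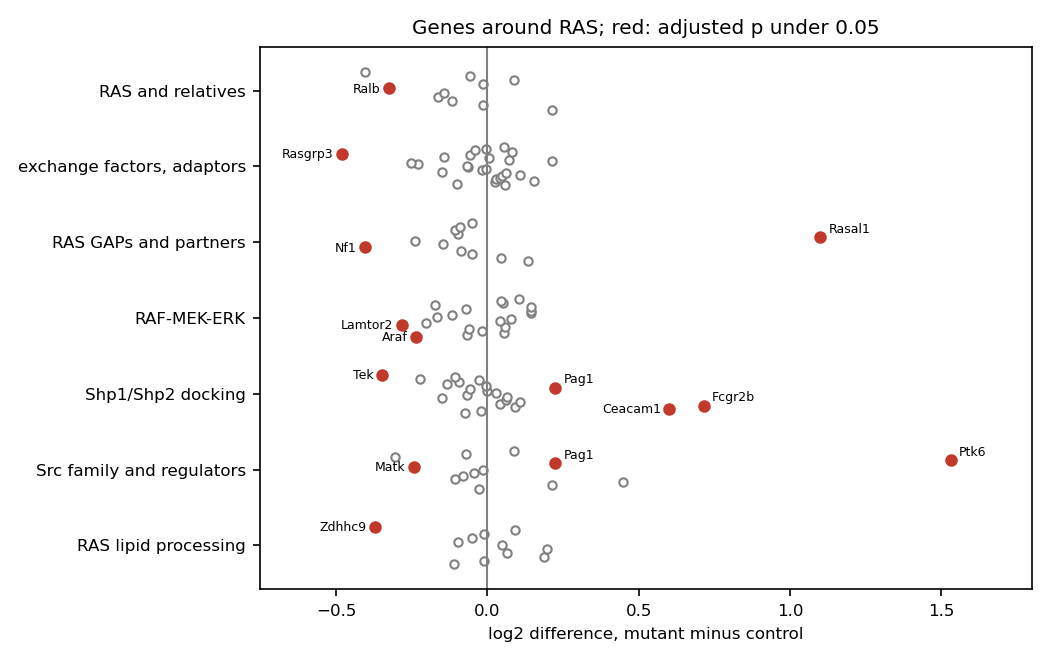
Fitted log2 difference, mutant minus control (x axis), of each measured gene in 7 lists around RAS (y axis). Red named points passed the threshold and open grey points did not. Ptk6 at 1.53 and Rasal1 at 1.10 lie farthest to the right, and most points lie close to 0.

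Among Src-family kinases and their regulators, 2 of 13 were higher and 1 lower, or 23.1%, against 9.19% of all rows and 15.8% of rows above noise. Both group means of 6 of the 13 were within noise. The called genes Matk and Pag1 had overall means under the limit (23.6 and 4.2), so the 15.8% does not cover them. Ptk6, an epithelial tyrosine kinase related to Src and found in differentiating cells of the gut, read 70.6, 184 and 223 (lowest, median, highest) in mutants, while all 6 controls, from 0.1 to 16.3, lay under the noise limit. It was at least 5.39-fold higher. The log2 difference was 1.53 (SE 0.16, adjusted p = 5.93e-05), and the lowest mutants were 4 and 2, at 70.6 and 98.8. Matk, a kinase that restrains Src family members, was under the limit in all mutants (15.4 ± 2.24) and read 31.7 ± 8.60 in controls, of which 4 of 6 were above it (adjusted p = 0.0174). With values floored at the limit and no offset, Matk no longer passed (adjusted p = 0.128). Pag1, which anchors the Src inhibitor Csk, was called higher with both means within noise, and the call was lost in 9 of the 12 fits that drop a mouse. Src and Csk themselves did not pass (adjusted p = 0.161 and 0.212).

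Of 22 proteins that dock Shp1 or Shp2, 3 were higher, Pag1 among them, and 1 lower, or 18.2%, against the same 9.19% and 15.8%. Both group means of 7 of the 22 were within noise, those of Pag1 included. Fcgr2b, the inhibitory Fc receptor for IgG, averaged 67.8 ± 11.2 in mutants and 13.4 ± 2.39 in controls, every one of which lay within noise. It was at least 2.41-fold higher, with a log2 difference of 0.71 (SE 0.06, adjusted p = 4.30e-06). Ceacam1, an adhesion receptor whose cytoplasmic tail binds both phosphatases, read 206 ± 82.2 in mutants and 106 ± 16.5 in controls (log2 difference 0.60, SE 0.16, adjusted p = 0.0262). Mutants 2 and 4, at 127 and 128, were level with control 4 at 127. The endothelial receptor Tek fell, at 519 ± 88.3 in mutants and 679 ± 75.1 in controls (adjusted p = 0.0357), as did 2 other endothelial markers. Dropping any of controls 2, 5 and 6 or mutants 3 and 5 took the adjusted p of Ceacam1 to between 0.0506 and 0.0592. Dropping any of controls 3, 4 and 6 or mutants 1, 3, 5 and 6 took that of Tek to between 0.055 and 0.0758. Sirpa, a receptor that recruits both phosphatases in myeloid cells, did not pass (adjusted p = 0.121).

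**Figure D4:**
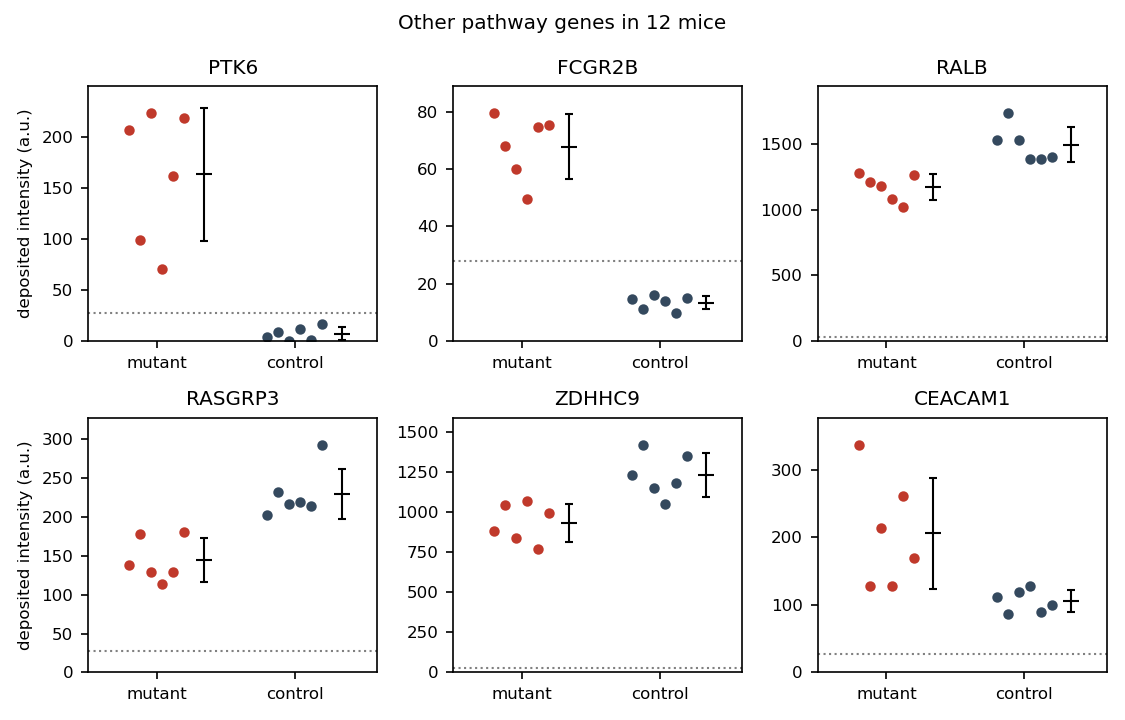
Deposited intensity in arbitrary units (y axis, linear) of 6 further pathway genes in every mouse, mutants in red on the left and controls in blue on the right, with mean and SD in black and the noise limit of 27.8 dotted. PTK6 and FCGR2B lie above the limit in every mutant and under it in every control, RALB and RASGRP3 are lower in every mutant than in any control, and CEACAM1 spreads more widely in mutants (SD 82.2) than in controls (SD 16.5).

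Of 10 RAS relatives 1 was called, or 10%, against 9.19% of all rows and 15.8% of rows above noise. This was Ralb, a GTPase that acts below RAS in exocytosis and survival signalling. It read 1024, 1196 and 1281 (lowest, median, highest) in mutants, against 1386, 1467 and 1735 in controls, with no overlap (log2 difference -0.33, SE 0.07, adjusted p = 0.00775). Of 26 activators and adaptors only Rasgrp3 was called (3.85%, under both of those shares), an exchange factor that diacylglycerol recruits. Both group means of 10 of the 26 were within noise. Rasgrp3 read 145 ± 27.9 in mutants and 229 ± 32.5 in controls, again with no overlap (log2 difference -0.48, SE 0.09, adjusted p = 0.00371). The adaptor Nck1 and the docking protein Gab3 did not pass (adjusted p = 0.153 and 0.279), nor did the RAS relatives Rras2 and Rala (0.119 and 0.208). Of 11 lipid-processing enzymes 1 was called (9.09%, against the same 9.19% and 15.8%). This was Zdhhc9, the palmitoyltransferase of Hras and Nras, at 931 ± 120 in mutants and 1229.6 ± 135 in controls (log2 difference -0.37, SE 0.09, adjusted p = 0.0145). Mutants 2 and 4, at 1043 and 1066, were close to or above the lowest control at 1052.

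In the kinase cascade 2 of 20 genes were called (10%, against 9.19% of all rows and 15.8% of rows above noise), both lower by little. Araf, a RAF kinase, read 1906 ± 94.1 in mutants and 2256 ± 186 in controls (log2 difference -0.24, SE 0.06, adjusted p = 0.0262). Lamtor2, listed as Mapbpip, which tethers MEK and ERK to late endosomes, read 423 ± 38.3 in mutants and 533 ± 75.2 in controls (adjusted p = 0.0413). Mapk3, a kinase at the end of the cascade, did not pass, at 352 ± 23.7 in mutants and 402 ± 36.3 in controls (adjusted p = 0.119). Of the 12 GAPs and partners 16.7% were called, against the same shares, with Rasal1 higher and Nf1 (neurofibromin) lower. Nf1 read 55.6 ± 7.48 in mutants and 101 ± 37.7 in controls (log2 difference -0.40, SE 0.12, adjusted p = 0.0424). The calls of Araf, Lamtor2 and Nf1 lay close to the threshold, and leaving out a single mouse could end them. Araf no longer passed after any of controls 3, 4 and 6 or mutants 2, 4 and 6 was dropped (adjusted p from 0.0501 to 0.0614). The same held for Lamtor2 with controls 1, 2, 5 and 6 and mutants 1, 3, 4, 5 and 6 (from 0.0537 to 0.0874), and for Nf1 with controls 2, 5 and 6 and each of the 6 mutants (from 0.0602 to 0.0905).

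A targeted allele is inherited together with the DNA around it, and the background was mixed, so the neighbours of Ptpn11 were examined. Rasal1 lies on the same chromosome, 15 annotated genes from Ptpn11. None of the other 7 genes shares that chromosome. Of the 100 annotated genes nearest to Ptpn11, 50 on each side, 52 had a row. In the mutants 2 of these were higher and 2 lower (7.69%, against 9.19% of all rows and 15.8% of rows above noise). Both group means of 17 of the 52 were within noise. The group ranges did not overlap in 4 of the 52 (7.69%, against 4.69% of all rows). Besides Rasal1 the called neighbours were Naa25, Trafd1 and Oas1c. Naa25, a subunit of an N-terminal acetyltransferase and 8 genes away, read 336 ± 34.3 in mutants and 225 ± 21.1 in controls, with no overlap (log2 difference 0.45, SE 0.07, adjusted p = 0.000993). Trafd1, a feedback inhibitor of innate immune signalling and 6 genes away, read 950.1 ± 78.7 in mutants and 1265 ± 137 in controls, also with no overlap (log2 difference -0.38, SE 0.07, adjusted p = 0.00454). Oas1c, of the oligoadenylate synthetase family, was within noise in mutants on average (18.6 ± 5.16) and read 37.8 ± 9.10 in controls (adjusted p = 0.0142), a call that was lost with values floored at the noise limit and no offset (adjusted p = 0.120). In these samples the labelled mutant genotype and the segment inherited with the floxed allele cannot be told apart, and no genotype of the segment is used here.

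**Figure D5:**
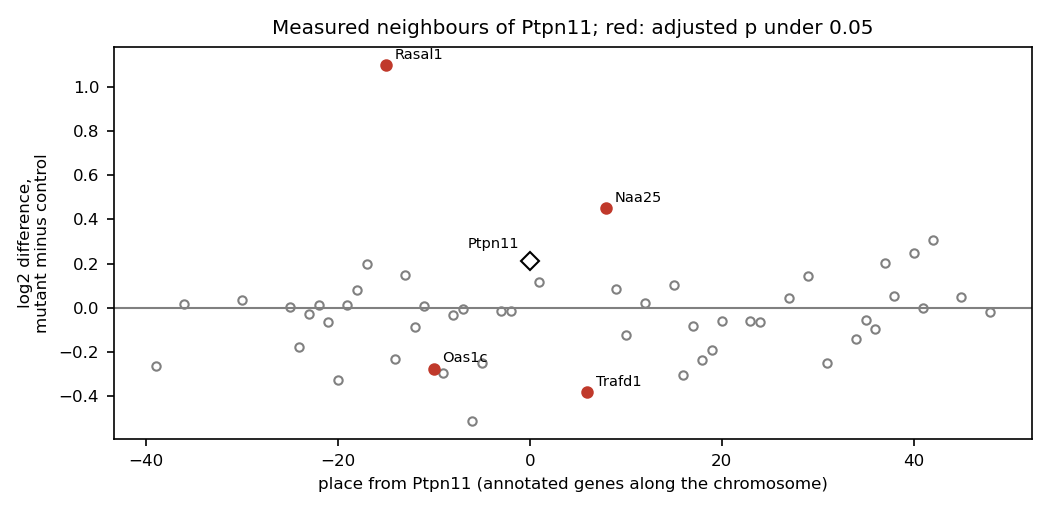
Fitted log2 difference, mutant minus control (y axis), of the 52 measured genes among the 50 annotated neighbours on each side of Ptpn11, by their place in annotated genes (x axis). Red named points passed the threshold. Rasal1 stands at 1.10, 15 genes from Ptpn11 (diamond), with Naa25 at 0.45 above 0 and Trafd1 at -0.38 and Oas1c at -0.27 below it.

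The rows whose values deviated from the group means most like those of Ptpn11 over the 12 mice were APBB1, FLOT1 and LOC100048076, with Pearson correlations of 0.93, 0.90 and 0.90 (a description, since they are the highest of 9945 rows, and no p is given). For Ptpn6 they were ARMC7, 6330534C20RIK and PI4KA (0.87, 0.87 and 0.85), and for Rasal1 they were PPM1D, CDCA2 and CAT (0.90, 0.90 and 0.89). None of these 9 rows was itself called between the groups.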

How the data were processed

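RNA from the proximal small intestine of 12 mice was read on a 1-colour Illumina array. Group and replicate number came from the sample titles. The intensities deposited by the authors, 1 for each of 18090 symbols and each mouse, were on a linear scale. GenomeStudio and Partek were used, per the submitters' processing notes, and the array version was not given in the sources used here. The deposited intensities were already background-subtracted (22.5% lay below 0) and normalized (column medians 41.8 to 43.4). A non-normalized table was left out, since none of its 24 data columns could be tied to a label.

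These values were background-modelled by normexp (offset 50), quantile normalized, put on the log2 scale and fitted with limma 3.58.1 in R 4.3.3 (group as the only term, all rows kept, two-sided, Benjamini-Hochberg over all rows). Quantile normalization hides a shift of all genes together. With 6 arrays in each group, their number limits the precision. On simulated data of 18090 rows the mutant versus control fit recovered 88.1% of rows changed 1.5-fold, 98.5% of those changed 2-fold and 100% of those changed 4-fold. These changes were put in on the log2 scale after the offset, and only in rows above the noise limit. The simulated errors were normal and independent between mice and rows, and fewer rows were changed than were called in the data. No fold under 1.5 was put in, so the shares do not cover the smaller fitted differences of the uncalled genes of the set. The offset shrinks a fold of deposited intensity in dim rows, so the shares do not hold for such folds there.

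Row names were matched to RefSeq symbols of GRCm38.p6, 14092 by symbol and 3023 by a single synonym, for names and gene order. For each list gene the brightest row was used. Where 1 group lay wholly at or under the noise limit and the other wholly above, a bound is given instead of a fold, dividing the brighter group's geometric mean by the limit. All 9 members, all called genes of the lists, up to 4 further genes of a list by smallest p, the called neighbours within 50 genes and the 3 rows most like each of Ptpn11, Ptpn6 and Rasal1 were to be named. Vil1, Cdh1 and Ptprc are named as defining markers of their cell types. Members and lists were chosen with earlier results of these data known. Deviations of same-numbered mice correlated at -0.11 to 0.27, and the numbers were not used to pair them in the main fit. Differently numbered mice were not set beside these, so a pairing is not excluded. The labels call the samples biological replicates. Alternatives covered the background step, offset, normalization, floor, filter, variance model, array weights, replicate block and samples left out. Some list genes are counted but not reported here by name.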

Additional observations from a re-analysis of the deposited data

Results flagged for a closer look

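Grb2 in the control group held 1 value that stood apart: control 1 read 72.1 units, while the other 5 controls lay between 42.7 and 51.6. The gap divided by the range of the group was 0.697, above Dixon's 95% critical value for 6 samples. Of the 18 groups of 6 values examined (9 genes in mutants and in controls) it was the 1 above that value, and chance gives about 1 in 20. Grb2 did not pass the test with control 1 or without it.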

How the results depend on the processing

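Of 187 values of the 9 genes under the alternatives, 185 kept their direction and their side of the threshold. The exceptions were both Ptpn11, which passed with a replicate block (log2 difference 0.21, adjusted p = 0.044) and without control 3 (0.25). Leaving out 1 mouse at a time, the log2 difference ran from 0.18 to 0.25 for Ptpn11, from -0.37 to -0.28 for Ptpn6 and from 1.03 to 1.15 for Rasal1. The replicate block changed no other call among the 9 genes, gave 857 rows higher and 845 lower against 852 and 811, and ended the calls of Araf and Pag1. With values floored at the noise limit and no offset, 532 rows were higher and 501 lower, and of the pathway genes 2 and 4. That setting changes several choices at once, and the cause was not tested. Sos1 has no difference there, all its values being equal. Leaving out 1 mouse gave 655 to 875 rows higher and 592 to 844 lower, and 2 to 4 pathway genes higher and 4 to 7 lower. Without control 4 and mutant 1 together 5 pathway genes were lower. Signal near or under the noise limit bounds what Sos1, Grb2 and the controls of Rasal1 can show.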

Other observations

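Acad12, listed as 9330129D05RIK and 16 annotated genes from Ptpn11, was lower in every mutant than in any control without passing the test (97.2 ± 23.5 in mutants, 136 ± 16.6 in controls, adjusted p = 0.0563). It was looked at after its values were seen.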
